A study of Mus musculus with 9 samples.

Results

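Immediate early genes are transcribed within minutes of a stimulus, without the need for new protein, and the members described here are Fos, Fosb, Junb, Egr1, Nr4a1, Npas4, Arc, Btg2, Ier2 and Dusp1. They were chosen by name, as genes often read as a measure of neuronal activity or of handling stress. Of the 10 genes, 9 have an entry among the 13588 of the deposited table, and Ier2 was not analysed here. Socs3, a feedback inhibitor of cytokine and leptin signaling that is also quickly induced, is set beside them.

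In neurons, calcium entry and cAMP activate kinases that phosphorylate CREB and the serum response factor complex already bound at the promoters of these genes, so their mRNA appears fast and decays fast. Fos, Fosb and Junb encode subunits of the AP-1 transcription factor, while Egr1, Nr4a1 and Npas4 encode transcription factors of other families, Npas4 being induced by calcium in particular. Arc encodes a synaptic protein that acts on glutamate receptor trafficking, Btg2 an antiproliferative cofactor that is also a p53 target, and Dusp1 a phosphatase that switches off MAP kinases. In the hypothalamus such genes respond to feeding state, to hormones and to stress, and glia, endothelium and immune cells can induce them as well.

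The 9 libraries are from 9 male mice labelled as strain C57/BL6 (C57BL/6J in the study's methods) that carry a floxed Snord116 allele (B6(Cg)-Snord116tm1Uta/J), which by the study's methods were homozygous for it. Each was injected in the mediobasal hypothalamus as an adult with AAV-Cre or AAV-GFP, and the brains were frozen 10 weeks after injection, in 3 AAV-GFP mice and 6 AAV-Cre mice. Cre was driven by the CAG promoter and GFP by the CMV promoter, neither of which is restricted to neurons. By the study's methods the AAV-Cre stock also had a higher titer than the AAV-GFP stock, so vector dose differed along with the transgene. The captured region came from single slices and was chosen by Cre staining in adjacent sections, or by matching position in AAV-GFP mice, so each library is 1 mouse and can hold any cell type of the region. The labels class 3 AAV-Cre mice as obese and 3 as nonobese, but the word obese stands in the titles of the mice labelled nonobese, so the labels contradict each other, and the subsets are called here labelled obese and labelled nonobese. By the study's methods the mice were killed under terminal Dolethal anesthesia, during which serum was taken from AAV-injected mice by cardiac puncture, and earlier tests included food intake in single housing. The time of day and the time since the last handling or meal were not given in the sources used here.

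Expression is given as signal, a read count scaled to library size in the manner of CPM, and the reads behind each value were recovered. The libraries hold from 3929672 to 5766994 reads on the listed entries, and 3 reads, taken as the smallest number told from 0, equal a signal of 0.525 to 0.786, which covers counting error only. Cre signal lay between 235 and 8557 in the AAV-Cre mice and between 0 and 0.957 in the AAV-GFP mice, whereas Gfp lay between 62.7 and 79.0 in AAV-GFP mice and was 0 in every AAV-Cre mouse. The RNA of Snord116 itself was not analysed here. All 9 neuronal markers were above 0 in every library, and their summed signal was 2594 to 2894 in AAV-GFP mice, 2142 to 3144 in mice labelled obese and 2955 to 3309 in mice labelled nonobese. The 5 arcuate neuropeptides with an entry summed to between 33.9 and 228 over the 9 libraries, and 3 ventromedial markers to between 19.3 and 199.8. Among the latter, the signal of Nr5a1 ran from 0 to 46.1, with values of 0 in each group. Whether the capture of these nuclei or the expression within them differed was not tested. Replicate 2 labelled obese and replicate 2 labelled nonobese stand apart, with 4.75% and 5.76% of all entries at 0 reads against 1.05% to 2.75% in the other libraries.

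The promoters of these genes carry the elements through which CREB acts, and the window of 250 bases before the start in RefSeq (GRCm38.p6) was searched for them. A window was given for 7 of the 9 members, and Egr1 and Arc had none. It is shown for Fos, the member best known as a marker of activity, for Npas4 and Btg2, on which the comparisons turn, and for Socs3. Capitals mark TGACGT or its reverse complement ACGTCA, the core of the cAMP response element (in Btg2 as the full palindrome TGACGTCA), TATAAA on the strand shown, and TTCNNNGAA, the spacing to which STAT factors bind. Fos is read on the plus strand at chr12:85473640-85473889, and the others on the minus strand, Npas4 at chr19:4989972-4990221, Btg2 at chr1:134079156-134079405 and Socs3 at chr11:117969367-117969616.
Fos: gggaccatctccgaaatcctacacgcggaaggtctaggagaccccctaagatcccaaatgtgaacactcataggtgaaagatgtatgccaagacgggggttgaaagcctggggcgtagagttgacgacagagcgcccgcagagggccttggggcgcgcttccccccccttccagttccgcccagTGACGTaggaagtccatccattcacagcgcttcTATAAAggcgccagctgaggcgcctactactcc
Npas4: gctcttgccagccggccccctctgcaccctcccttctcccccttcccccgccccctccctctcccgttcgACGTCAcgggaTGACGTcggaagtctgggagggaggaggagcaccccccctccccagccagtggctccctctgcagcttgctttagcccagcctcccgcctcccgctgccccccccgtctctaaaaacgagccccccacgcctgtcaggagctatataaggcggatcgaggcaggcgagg
Btg2: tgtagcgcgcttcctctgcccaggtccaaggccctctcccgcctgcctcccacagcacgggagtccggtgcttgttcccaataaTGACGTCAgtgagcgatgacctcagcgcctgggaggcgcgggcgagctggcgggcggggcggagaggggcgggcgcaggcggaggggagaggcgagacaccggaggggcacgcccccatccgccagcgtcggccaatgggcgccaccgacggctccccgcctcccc
Socs3: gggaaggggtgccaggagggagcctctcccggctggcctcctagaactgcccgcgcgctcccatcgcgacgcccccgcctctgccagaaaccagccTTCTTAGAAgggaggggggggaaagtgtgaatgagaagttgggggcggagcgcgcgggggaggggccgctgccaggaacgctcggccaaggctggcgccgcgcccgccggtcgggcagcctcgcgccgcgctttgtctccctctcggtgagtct

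On either strand, TGACGT stood in the windows of 4 of 7 members, namely Fos, Npas4, Btg2 and Dusp1, against 6.47% of the 32851 promoter windows of the genome. The Fos copy lies 66 to 61 bases before the start, with TATAAA at 33 to 28 bases. Npas4 has 2 copies, at 180 to 175 and 169 to 164 bases, on opposite strands. Btg2 and Dusp1 hold the full TGACGTCA, found in 1.55% of windows, and since it reads the same on both strands its core is counted once on each. The shorter TGACG was present in 7 of 7 members, Fosb, Junb and Nr4a1 among them, against 17.8% of windows. Socs3 had none of these, and 1 TTCNNNGAA match (7.02% of windows), which 0 of the 7 members had. The CArG box of the serum response factor, found in 1.47% of windows, was matched in 0 of the 7. Egr1 and Arc were not searched, nor was sequence farther upstream, so a CArG box outside these windows would be missed. These are matches of letters within 250 bases and not measured binding.

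Per length, most members were expressed below the typical gene of the region. Signal per kilobase of exon, averaged over the 9 libraries, was 8.67 for Egr1, which exceeds 67.2% of the 12613 protein-coding entries. Junb followed with 4.88 and Fos with 3.73, against a median of 5.15 over the protein-coding entries. Arc had 3.54, Btg2 3.35 and Nr4a1 3.17, Dusp1 had 1.98, and Fosb (0.932) and Npas4 (0.9003) were at the bottom, above 6.55% and 6.13% of entries. Socs3 had 2.93. Between mice the members differed widely in stability. The coefficient of variation of signal over the 9 libraries was lowest for Egr1 (26.9%) and Arc (34.7%) and highest for Junb (113%), Btg2 (93.7%) and Npas4 (87.4%). The middle of the order is set by few mice and is not firm, since the per-kilobase levels of Fos, Arc, Btg2 and Nr4a1 lie closer together than their own spread between mice.

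**Figure D1:**
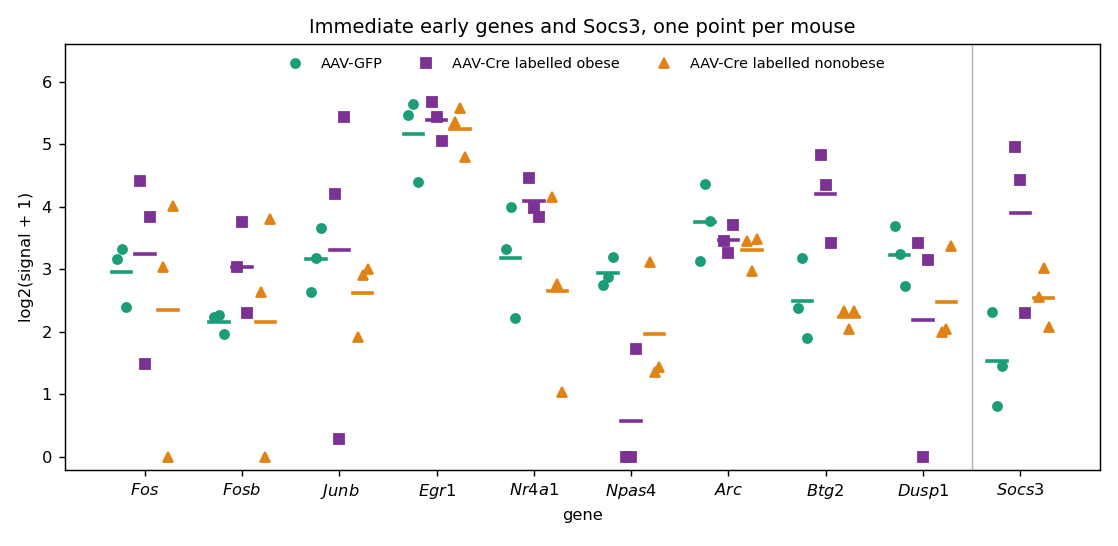
Expression of the 9 immediate early genes and Socs3 as log2(signal + 1), with 1 point per mouse, a horizontal bar at the mean of each group and the groups marked by color and shape. Npas4 points of mice labelled obese lie below all AAV-GFP points, Btg2 points of mice labelled obese lie above all other mice, and points at 0 are libraries without a read.

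Fos (ENSMUSG00000021250, GRCm38 chromosome 12 from 85473890 to 85477273) had signals of 7.98, 9.0 and 4.27 in AAV-GFP mice, 20.2, 1.82 and 13.2 in mice labelled obese, and 7.17, 0 and 15.2 in mice labelled nonobese. The groups overlapped, and the AAV-Cre mice held both the highest and the lowest values, from 90 reads in replicate 1 labelled obese to 0 reads in replicate 2 labelled nonobese. Fosb (ENSMUSG00000003545, chromosome 7 from 19302696 to 19310051), whose truncated product accumulates with repeated activity, had signals of 3.74, 3.83 and 2.91 in AAV-GFP mice, 7.20, 12.5 and 3.95 in mice labelled obese, and 5.25, 0 and 13.02 in mice labelled nonobese. All 3 mice labelled obese were above all AAV-GFP mice, the lowest of them by 17 reads against 20, 15 and 15 reads in AAV-GFP mice. Junb (ENSMUSG00000052837, chromosome 8 from 84974484 to 84978718) overlaps Prdx2 on the opposite strand, and the strand setting of the counting is unknown, so some of its reads may be those of Prdx2. Its signal was 5.24, 8.04 and 11.7 in AAV-GFP mice, 17.3, 0.227 and 42.3 in mice labelled obese, and 2.80, 6.55 and 7.04 in mice labelled nonobese. The 2 highest of the 9 values and the lowest, a single read, were all in mice labelled obese.

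Egr1 (ENSMUSG00000038418) was the most even member, with signals of 43.4, 49.0 and 20.0 in AAV-GFP mice, 50.2, 42.2 and 32.1 in mice labelled obese, and 39.7, 46.6 and 26.7 in mice labelled nonobese. The groups overlapped fully, and the highest library exceeded the lowest 2.51-fold. Nr4a1 (ENSMUSG00000023034, chromosome 15 from 101254269 to 101274795), an orphan nuclear receptor, had signals of 8.98, 14.9 and 3.69 in AAV-GFP mice, 20.9, 14.8 and 13.2 in mice labelled obese, and 16.8, 5.76 and 1.07 in mice labelled nonobese. Mice labelled obese lay in the upper part of the range, and overlapped both other groups. Npas4 (ENSMUSG00000045903, chromosome 19 from 4984355 to 4990316) had signals of 5.73, 6.32 and 8.16 in AAV-GFP mice, 0, 0 and 2.32 in mice labelled obese, and 7.70, 1.57 and 1.71 in mice labelled nonobese. In reads these are 23, 33 and 42 in AAV-GFP mice, then 0, 0 and 10, and 44, 6 and 8. Mice labelled obese were all below the AAV-GFP mice, and 5 of the 6 AAV-Cre mice were, with replicate 1 labelled nonobese within the AAV-GFP range. A count of 0 allows up to 3 reads, a signal of 0.675 and 0.681 in the libraries concerned, and 4.54% and 6.90% of the entries within 1.5-fold of the mean AAV-GFP signal of Npas4 were at 0 in those libraries.

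Arc (ENSMUSG00000022602, chromosome 15 from 74669083 to 74672570) had signals of 7.73, 19.5 and 12.6 in AAV-GFP mice, 9.90, 8.62 and 12.1 in mice labelled obese, and 9.97, 6.81 and 10.2 in mice labelled nonobese. The AAV-Cre values fell mostly within the AAV-GFP range. Btg2 (ENSMUSG00000020423, chromosome 1 from 134075170 to 134079120) had signals of 4.24, 8.04 and 2.72 in AAV-GFP mice, 27.4, 19.3 and 9.76 in mice labelled obese, and 4.02, 3.14 and 4.05 in mice labelled nonobese. Every mouse labelled obese was above every other mouse, the lowest with 42 reads, as many as the highest AAV-GFP mouse had in a larger library. Dusp1 (ENSMUSG00000024190, chromosome 17 from 26505590 to 26562128) overlaps other annotated genes on both strands, so its reads are uncertain, and had signals of 11.97, 8.43 and 5.63 in AAV-GFP mice, 9.67, 0 and 7.90 in mice labelled obese, and 2.97, 3.14 and 9.39 in mice labelled nonobese. The groups overlapped, and the lowest value, 0 reads, was in replicate 2 labelled obese.

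Read by library, the members did not move as a block. The mean log2(signal + 1) over the 9 members was 3.20, 3.56 and 2.92 in AAV-GFP mice, 3.72, 2.51 and 3.61 in mice labelled obese, and 3.11, 2.19 and 3.03 in mice labelled nonobese. Replicate 1 labelled obese held the highest value of 4 members (Fos, Egr1, Nr4a1 and Btg2) and at the same time had no read of Npas4. The lowest means were those of the 2 libraries with the most entries at 0, each of which held the lowest value of 3 members and 2 of the 5 member values at 0 reads. The part of that library difference in the member values was not tested. Within these libraries members still differed, since replicate 2 labelled obese had 85 reads of Btg2 and 55 of Fosb beside 8 of Fos, 1 of Junb and 0 of Dusp1, and replicate 2 labelled nonobese had 178 reads of Egr1 beside 0 of Fos and Fosb.

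**Figure D2:**
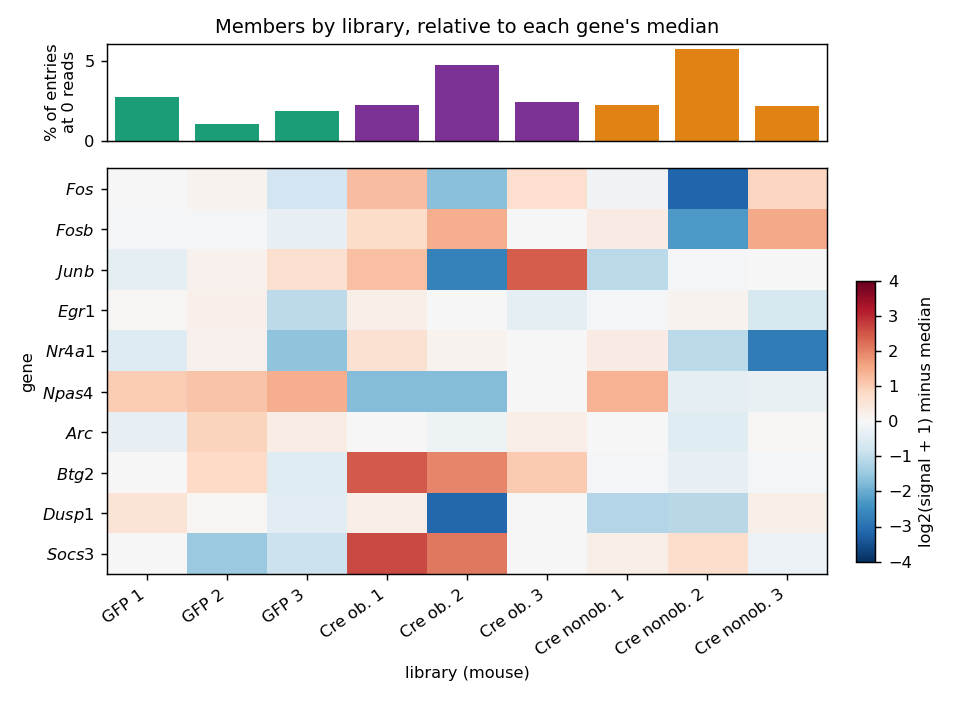
Members and Socs3 (rows) in the 9 libraries (columns) as log2(signal + 1) minus the median of the gene over the libraries, with bars above for the percentage of all entries at 0 reads in each library. Colors of opposite sign share most columns, and the 2 tallest bars, 4.75% and 5.76%, stand over the columns with the deepest blue cells of Fos, Junb and Dusp1.

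The comparison of mice labelled obese with AAV-GFP mice asks whether genes of neuronal activation differ in the AAV-Cre mice classed as obese. Npas4 was lower, at a mean signal of 0.774 ± 1.34 (SD, n = 3) against 6.74 ± 1.26 (SD, n = 3), and Btg2 was higher, at 18.8 ± 8.86 (SD, n = 3) against 5.0 ± 2.74 (SD, n = 3), while Egr1, Arc, Fos and Junb had no shared direction. None of these differences passed the test. With limma, 0 of the 9 members had an FDR under 0.1, against 0.555% of the 13506 entries tested. Single mice set that background, since the share of entries called became 5.27% without replicate 2 labelled obese, 0.0671% without replicate 1 labelled obese, 0.0894% without replicate 3 labelled obese, and 0.0594%, 0.304% and 0.163% without AAV-GFP replicates 1, 2 and 3, with 0 members called each time. No member was called with edgeR's quasi-likelihood test, its likelihood ratio test (1.93% of entries) or DESeq2 (2.04% of entries) on the recovered reads. At an unadjusted p under 0.05 there were 2 members, Npas4 and Btg2, against 9.88% of the entries. The groups did not overlap in 3 members, Fosb and Btg2 higher (7.18% of the entries) and Npas4 lower (7.27% of the entries), against 14.5% in either direction, and each of these has an exact permutation p of 0.1, 2-sided, the smallest that 3 mice against 3 allow. The log2 fold change (log2 FC, on the log2(signal + 1) scale, which understates changes of low genes) of Npas4 was −2.36 (standard error 0.89, 95% interval −4.19 to −0.54, FDR = 0.344 with limma), and that of Btg2 was 1.71 (standard error 0.68, 95% interval 0.32 to 3.11, FDR = 0.373 with limma). In bulk tissue, fewer cells of a type and less RNA per cell cannot be told apart.

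Among the other members, Nr4a1 had a log2 FC of 0.91 and Fosb of 0.87, both with intervals that span 0 (−0.58 to 2.39 and −0.93 to 2.67), and leaving out 1 mouse gave 0.43 to 1.31 for Nr4a1 and 0.51 to 1.23 for Fosb. Dusp1 was at −1.03, Arc at −0.28, Fos at 0.28 and Junb at 0.15, each smaller than 1.5 times its standard error. Egr1, the member with the most reads, was bounded best, with a log2 FC of 0.22 and a 95% interval of −0.53 to 0.96. The median log2 FC of the 9 members was 0.22, beside −0.04 over all entries tested, with 6 members above 0 and 3 below. Single mice set some of these directions. Without replicate 2 labelled obese, Junb went from 0.15 to 1.66 and Dusp1 from −1.03 to 0.06, and without replicate 1 labelled obese, Fos turned to −0.30 and Junb to −0.29. The directions of Npas4, from −2.94 to −2.07, and Btg2, from 1.40 to 2.10, held in each fit that left out 1 mouse.

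In mice labelled nonobese, which received the same vector, no member stood apart from the AAV-GFP mice. Of the 9 members 0 had an FDR under 0.1 with limma (0.0148% of entries), 0 with either edgeR test or DESeq2, 0 an unadjusted p under 0.05 (2.27% of entries), and in 0 members did the groups fail to overlap (9.72% of entries). The lowest FDR was 0.999. Of the log2 FCs, 8 were below 0 and only that of Egr1, 0.07, was above, with a median of −0.53 over the members and −0.02 over all entries. Npas4 was at −0.97 (95% interval −2.79 to 0.86), with a mean signal of 3.66 ± 3.50 (SD, n = 3), and Btg2 at −0.25 (95% interval −1.64 to 1.15), with 3.74 ± 0.518 (SD, n = 3). Fos and Fosb were at 0 in replicate 2 labelled nonobese, and without it Fos turned from −0.61 to 0.56 and Egr1 to −0.10. Fosb, at −0.01, had no clear direction. It went to 1.06 without replicate 2 labelled nonobese, to 0.031 without AAV-GFP replicate 1 and to 0.044 without AAV-GFP replicate 2.

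Taking all 6 AAV-Cre mice together, 0 of 9 members were called with limma at an FDR under 0.1 (0.0444% of entries), nor was any with edgeR or DESeq2, and 1 had an unadjusted p under 0.05 (4.31% of entries). That member was Npas4, at a mean signal of 2.22 ± 2.85 (SD, n = 6) against 6.74 ± 1.26 (SD, n = 3). Its log2 FC was −1.66 (standard error 0.77, FDR = 0.991 with limma). A 2-sided exact permutation test gave p = 0.0714, where 6 mice against 3 can reach 0.0119. For 0 members did the groups fail to overlap (2.01% of entries). All of these contrasts share the same 3 AAV-GFP mice, so they are not independent of one another.

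Set against each other, the AAV-Cre subsets did not overlap in Btg2. Its signal was 5.03-fold lower in mean in mice labelled nonobese, with a log2 FC of −1.96 (standard error 0.68, 95% interval −3.36 to −0.57, FDR = 0.237 with limma). It was the 1 member with an unadjusted p under 0.05 (11.4% of entries) and the 1 member without overlap (13.3% of entries in either direction, 6.65% lower). With limma 0 of 9 members had an FDR under 0.1 (0.948% of entries), as with edgeR's quasi-likelihood test, whereas DESeq2 (FDR = 0.0436) and the likelihood ratio test of edgeR (FDR = 0.0678) called Btg2. These tools also called more of all entries, 2.88% and 2.95%. Nr4a1 was at −1.44 (95% interval −2.92 to 0.05, FDR = 0.458 with limma, and −2.19 to −0.63 when 1 mouse was left out) and Npas4 at 1.40 (95% interval −0.43 to 3.22, FDR = 0.575 with limma). The median of the members was −0.69, beside 0.02 over all entries, and 7 of 9 were below 0. Junb, at −0.69, went to −2.20 (FDR = 0.0592 with limma) when replicate 2 labelled obese was left out, where 6.72% of entries were called, and to 0.37 without replicate 3 labelled obese.

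**Figure D3:**
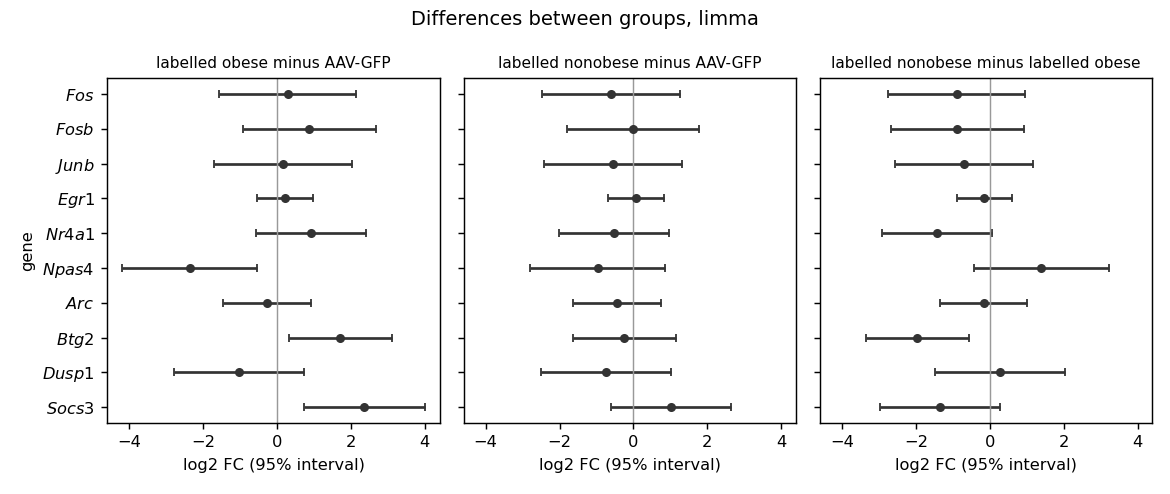
Log2 fold changes of the members and Socs3 from limma (points) with 95% intervals (bars) for mice labelled obese against AAV-GFP, mice labelled nonobese against AAV-GFP, and labelled nonobese against labelled obese. Intervals of Npas4, Btg2 and Socs3 exclude 0 in the first panel, none does in the second, and that of Btg2 does in the third, before adjustment over all entries.

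Socs3 (ENSMUSG00000053113, chromosome 11 from 117966079 to 117970047) was read beside the members by mouse. Its signal was 3.99, 0.766 and 1.75 in AAV-GFP mice, 30.1, 20.4 and 3.95 in mice labelled obese, and 4.90, 7.07 and 3.20 in mice labelled nonobese. Replicates 1 and 2 labelled obese were high, whereas replicate 3 labelled obese was within the range of the AAV-GFP mice. Those 2 high mice were the 2 without a read of Npas4 and the 2 with the most Btg2. They were not alike in the AP-1 genes, since Fos was at 90 reads in one and 8 in the other, and Junb at 77 reads and 1 read. Across the 9 mice, Pearson's r of Socs3 with Npas4 was −0.857 (exact permutation p = 0.00405, adjusted p = 0.182; Spearman's rho −0.728, exact permutation p = 0.0321). With the 2 mice farthest in Npas4 left out r was −0.50 (exact permutation p = 0.267), so the relation rests in part on those mice. With Btg2, r was 0.703 (exact permutation p = 0.0346, adjusted p = 0.362, rho 0.417, exact permutation p = 0.270). It was −0.32 without the 2 mice farthest in Btg2, so this relation rests on those 2 mice. With group means removed, r was −0.608 for Npas4 and 0.406 for Btg2. Of the 9 correlations with Socs3, 0 had an adjusted p under 0.05 and 2 a raw exact permutation p under 0.05, and for Fos r was −0.09.

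**Figure D4:**
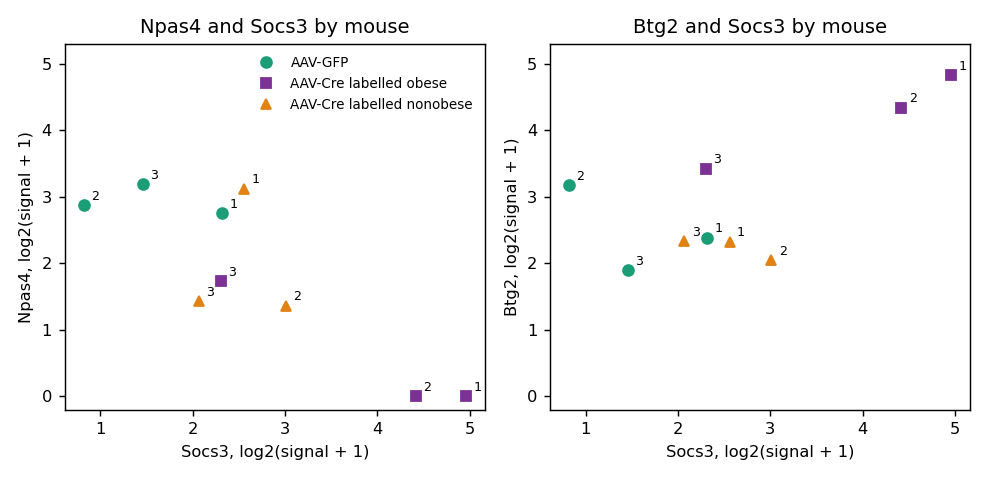
Npas4 (left) and Btg2 (right) against Socs3 in the same mouse, all as log2(signal + 1), with the replicate number beside each point and the group as color and shape. Replicates 1 and 2 labelled obese sit apart at the right of both panels, with Npas4 at 0 and the highest Btg2 values.

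The members themselves were only loosely related across mice. Of 36 pairs, 21 had a positive r and 15 a negative one, with a median of 0.0980 and a range from −0.754 to 0.746. After adjustment over all 45 correlations, Socs3 included, 0 pairs had an adjusted p under 0.05, and the lowest adjusted p was 0.362. At a raw exact permutation p under 0.05 there were 3 pairs. Junb and Dusp1 had an r of 0.746 (exact permutation p = 0.0285; rho 0.45, exact permutation p = 0.230), which was 0.830 with group means removed and 0.441 without the 2 farthest mice. Egr1 and Nr4a1 had an r of 0.686 (exact permutation p = 0.0403; rho 0.633, exact permutation p = 0.0760), which was −0.01 without the 2 farthest mice. Npas4 and Btg2 had an r of −0.754 (exact permutation p = 0.0212; rho −0.628, exact permutation p = 0.0781), which was −0.114 without the 2 farthest mice. The relations of Egr1 with Nr4a1 and of Npas4 with Btg2 therefore rest on a few mice. That of Junb with Dusp1 was weaker without the 2 farthest mice (exact permutation p = 0.330), and how far it rests on them is not settled. Fos and Fosb, which share a protein family, had an r of 0.613 (exact permutation p = 0.0866; rho 0.517, exact permutation p = 0.162).

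**Figure D5:**
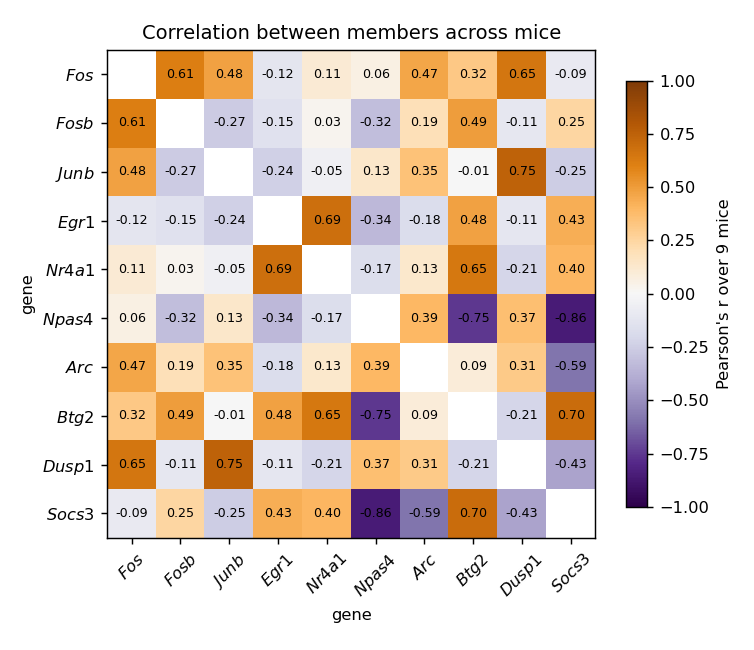
Pearson's r between members and with Socs3 over the 9 mice, computed on log2(signal + 1), with the value printed in each cell and color from purple (negative) to orange (positive). Cells run from −0.857 (Npas4 with Socs3) to 0.746 (Junb with Dusp1), and both signs occur in the row of each member.

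Other genes of the rapid response were followed as a fixed list of 50, of which 40 had an entry. Of these, 0 passed an FDR of 0.1 with limma or edgeR's quasi-likelihood test in any of the 4 comparisons. DESeq2 and edgeR's likelihood ratio test called Jun and Atf3 in mice labelled obese against AAV-GFP and Atf3 between the subsets, where these tools called 1.93% to 2.95% of all entries. The median log2 FC against AAV-GFP was 0.23 for the labelled obese subset, −0.21 for the labelled nonobese subset, and between the subsets it was −0.55. At an unadjusted p under 0.05 with limma, 4 genes were higher and 1 lower in mice labelled obese (9.88% of all entries in either direction), 0 passed in the labelled nonobese subset (2.27% of entries), and 1 was higher and 7 lower between the subsets (11.4% of entries). The 5 with the most signal were Rgs2, Jund, Jun, Mcl1 and Bhlhe40. Jun, the partner of Fos in AP-1, had signals of 27.7, 33.9 and 51.9 in AAV-GFP mice, 116, 78.5 and 59.5 in mice labelled obese, and 63.7, 31.4 and 36.9 in mice labelled nonobese. All mice labelled obese were above all AAV-GFP mice (7.18% of entries higher), with a log2 FC of 1.14 (standard error 0.33, FDR = 0.179 with limma). Rgs2, an inhibitor of G protein signaling, was at −0.51 (FDR = 0.552), Jund at −0.12, the survival factor Mcl1 at 0.28 and the clock-linked repressor Bhlhe40 at 0.09.

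The factors upstream of the members, CREB, its coactivators and the serum response and MEF2 factors, all had an entry (12 of 12), and 0 were called in any comparison with limma, edgeR or DESeq2, with 2 (Elk1 and Mrtfb) lower at an unadjusted p under 0.05 in mice labelled obese, beside 9.88% of all entries. Of 7 genes of the later activity response 6 had an entry, and 1, Vgf, was called between the subsets (0.948% of entries). Vgf, which encodes a secreted neuropeptide precursor, was lower in the labelled nonobese subset than in the labelled obese one (log2 FC −1.34, standard error 0.28, FDR = 0.0245 with limma). Against AAV-GFP its log2 FC was 0.94 in mice labelled obese (FDR = 0.203 with limma) and −0.39 in mice labelled nonobese (FDR = 0.999 with limma). Its signal was 155, 105 and 73.6 in AAV-GFP mice, 219, 186 and 213 in mice labelled obese, and 126, 46.9 and 88.3 in mice labelled nonobese. The subsets did not overlap (6.65% of entries lower). The glucocorticoid response, a readout of stress hormone, had 0 of 14 genes called in any comparison with limma, edgeR or DESeq2 and 0 at an unadjusted p under 0.05. Heat shock genes had 0 of 8 called by the same tools, with Dnajb1 alone at an unadjusted p under 0.05 with limma, where mice labelled obese were lower than both other groups (9.88% of entries against AAV-GFP and 11.4% between the subsets).

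Of the cytokine and STAT3 response, to which Socs3 belongs, 11 of 14 genes had an entry. Gfap, the intermediate filament of reactive astrocytes, and Serpina3n, a secreted protease inhibitor, were higher in mice labelled obese than in AAV-GFP mice, with log2 FCs of 3.03 (FDR = 0.0119) and 1.55 (FDR = 0.0223) from limma, beside 0.555% of all entries called. Stat3, Gfap and Serpina3n were lower in mice labelled nonobese than in those labelled obese, by log2 FCs of −1.15 (FDR = 0.0386), −3.39 (FDR = 0.00668) and −2.31 (FDR = 0.00109) from limma, beside 0.948% of all entries. These are the genes among the lists followed whose change passed where that of the members did not, which does not test whether the changes differ.

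Markers of other cell types moved with the mice labelled obese, and their part in the member values was not tested. Summed signal of 7 microglial markers was 778, 156 and 728 in these mice, against 116 to 168 in AAV-GFP mice and 111 to 158 in mice labelled nonobese. Of the 11 markers of lymphocytes and plasma cells 9 had an entry, and their sums were 2904, 73.8 and 5005 in mice labelled obese, 6.02 to 13.8 in AAV-GFP mice and 33.5 to 45.9 in mice labelled nonobese. In replicate 2 labelled obese the microglial sum was within the range of the AAV-GFP mice. Its lymphocyte sum was above all mice of both other groups and far below those of replicates 1 and 3 labelled obese. That lymphocyte sum was mostly Igkc (52.2) and Jchain (13.2). In the same mouse Ptprc (3.63) and Ighm (4.77) were within the AAV-GFP range, and Cd3e, Cd3g, Cd8a, Cd79a and Mzb1 were at 0. That mouse had signals of 19.3 for Btg2, 12.5 for Fosb, 20.4 for Socs3 and 0 for Npas4. The sum of 7 endothelial markers was higher in all 3 mice labelled obese, at 135 to 181 against 70.1 to 116 in AAV-GFP mice and 97.7 to 128 in mice labelled nonobese, and that of 6 oligodendrocyte markers was lower, at 835 to 1079.8 against 1179 to 1782 and 1160.03 to 2556. The 7 astrocyte markers summed to 2268 to 3028, 1938 to 2357 and 1766 to 2378 in the same order of groups, with overlap. At an FDR under 0.1 with limma, mice labelled obese exceeded AAV-GFP mice in 2 of 7 microglial markers (C1qa and C1qb), 2 of 7 astrocyte markers (Gfap and Aqp4) and 2 of 5 lymphocyte and plasma cell markers tested (Igkc and Jchain), and 0 endothelial, oligodendrocyte or neuronal markers were called. Without replicates 1 and 3 labelled obese, the mice with most reads of immune markers, Btg2 had a log2 FC of 1.86 against AAV-GFP and Npas4 of −2.94, from 1 remaining mouse that is assumed to vary like the others.

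By pattern over the 9 libraries, the genes most like the mean of the members (Pearson's r of log2(signal + 1), 9770 candidates with a mean signal of at least 10, given as a description of libraries that share depth and tissue makeup) were Kdm5c (0.951), Clec2d (0.935), Jund (0.927), Cic (0.923), Gm26809 (0.919), Donson (0.909), Plcg2 (0.909), Cdk5rap1 (0.907), Ifit3 (0.906) and Chfr (0.898). Of these Jund alone was on a list followed here. Kdm5c had signals of 33.8 and 31.4 in the 2 libraries with the most entries at 0 and 47.2 to 60.7 in the others, the same 2 libraries in which the member mean was lowest.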

How the data were processed

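RNA-seq was performed by the authors on laser-captured mediobasal hypothalamus of 9 mice with a stranded low-input kit, single-end reads being mapped to GRCm38. The submitters' processing notes name CASAVA 1.7, TopHat2 2.0.11, HTSeq, edgeR and limma. Whether counting used the strand was not given in the sources used here. Deposited by the authors is a table of signal, which is reads over a library size that edgeR's TMM factors scale, in the manner of CPM. Of the values in each library, 100% equalled whole reads (tolerance 0.01 reads), so reads were recovered. No entry has fewer than 50 reads in all, and 0 columns belong to other samples.

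The 13506 entries that reached a signal of 1 in 3 or more libraries were tested on the log2(signal + 1) scale by limma 3.58.1 in R 4.3.3, using a variance trend and all 3 groups in a fit. All AAV-Cre is the average of the subsets. P-values were Benjamini-Hochberg adjusted (FDR) over all entries, and a call is an FDR under 0.1, the threshold used in the study. Design and filter were written for CPM, and the same test was used for signal. Exact permutation tests over mice were 2-sided. Alternatives were pseudocounts of 0.1 and 5, no filter or a filter at 5, only the groups compared in the fit, median centring, no variance trend, a replicate block, an FDR threshold of 0.05, leaving out each mouse, and edgeR 4.0.16 and DESeq2 1.42.0 on recovered reads. The procedure was tested on simulated data. Symbols and positions are from GENCODE M21, matched for 13446 entries, and promoter windows from RefSeq. Genes named are the members and Socs3, listed genes with an FDR under 0.1, the 5 other rapid response genes of highest mean signal, the 10 genes most like the member mean, and those at an unadjusted p under 0.05 where they are few, which were chosen after their values were seen. The members, taken by name, and the lists and marker sets were chosen with earlier results of these data known. Each library is a separate mouse, so p-values measure the spread between mice, within a single captured slice of each.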

Additional observations from a re-analysis of the deposited data

Results flagged for a closer look

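Btg2 lay on opposite sides of the AAV-GFP mean in the AAV-Cre subsets, and neither subset passed the test against AAV-GFP. All 3 mice labelled obese were above the AAV-GFP mean of log2(signal + 1) and all 3 mice labelled nonobese were below it, and the subsets differed by a log2 FC of −1.96 (labelled nonobese minus labelled obese, unadjusted p = 0.00777 and FDR = 0.237 with limma). The 3 mice labelled nonobese, at signals of 4.02, 3.14 and 4.05, were within the AAV-GFP range of 2.72 to 8.04, and their log2 FC of −0.25 turned to 0.097 without AAV-GFP replicate 2, so no change in that subset is shown. Btg2 is a p53 target as well as an immediate early gene, and the summed lymphocyte markers were also highest in the 3 mice labelled obese, as were the microglial markers in replicates 1 and 3 labelled obese. In replicate 2 labelled obese, whose Btg2 signal was 19.3, the microglial sum of 156 was within the AAV-GFP range. The part of either in the Btg2 values was not tested. Among the 6 AAV-Cre mice no member nor Socs3 had a single mouse that stood beyond Dixon's 95% limit for the gap over the range. Fosb came nearest, with 0.606 for the value of 0 in replicate 2 labelled nonobese, and chance alone would mark about 5% of such groups.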

How the results depend on the processing

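Against AAV-GFP, no member was called under any alternative run, in either subset or in the 6 AAV-Cre mice. Between the subsets the count of members called went from 0 to 1 with edgeR's likelihood ratio test, with DESeq2 (both Btg2), without replicate 2 labelled obese and, an alternative added after seeing the data, without replicate 2 of both AAV-Cre subsets (both Junb, FDR = 0.0592 and 0.0548). The entries called in all rose as well, from 128 to 398, 389, 906 and 714 in that order, and leaving out each mouse gave 0 to 1 members. Socs3, at an FDR of 0.254 in mice labelled obese with limma, reached 0.0508 with the likelihood ratio test and 0.0312 with DESeq2. Correlations among members with an adjusted p under 0.05 went from 0 to 1 with the 2 farthest libraries left out, namely Fos with Npas4 (r −0.922 with an adjusted exact permutation p of 0.0357, while over all 9 mice r was 0.058 with an adjusted exact permutation p of 0.935). The cause was not tested.

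Of the 40 log2 FCs, those of Npas4 and Socs3 kept their direction under every alternative. The following turned. With edgeR's quasi-likelihood test, its likelihood ratio test and DESeq2, Fos became 0.079, 0.076 and 0.073 and Fosb 0.80, 0.80 and 0.80 in mice labelled nonobese, Fos 0.41, 0.40 and 0.42 and Junb 0.32, 0.33 and 0.34 in all AAV-Cre mice, and Dusp1 −0.18, −0.18 and −0.21 between the subsets. A pseudocount of 5 gave Fosb 0.20 in mice labelled nonobese, Fos 0.073 and Junb 0.046 in all AAV-Cre mice, and Dusp1 −0.0061 between the subsets, and a pseudocount of 0.1 gave Junb −0.36 in mice labelled obese. Without both replicates 2, Dusp1 was 0.064 in mice labelled obese, Fos 0.56, Fosb 1.06 and Egr1 −0.10 in mice labelled nonobese, Fos 0.86 and Junb 0.48 in all AAV-Cre mice, and Fosb 0.56 and Dusp1 −0.60 between the subsets. Without replicates 1 and 3 labelled obese, also added after seeing the data, Fos was −1.47 and Junb −2.86 in mice labelled obese, and Fos 0.85, Junb 2.32 and Arc 0.037 between the subsets.

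When each mouse was left out in turn, the log2 FCs that turned ranged in mice labelled obese from −0.30 to 1.16 for Fos, −0.91 to 1.66 for Junb, −0.17 to 0.45 for Egr1, −0.59 to 0.027 for Arc and −1.64 to 0.064 for Dusp1. In mice labelled nonobese they ranged from −1.45 to 0.56 for Fos, −0.84 to 1.06 for Fosb, −0.32 to 0.31 for Egr1, −1.28 to 0.27 for Nr4a1 and −0.54 to 0.10 for Btg2. In all AAV-Cre mice they ranged from −0.58 to 0.42 for Fos, −0.73 to 0.56 for Junb, −0.25 to 0.38 for Egr1 and −0.29 to 0.60 for Nr4a1, and between the subsets from −1.77 to 0.28 for Fos, −1.71 to 0.19 for Fosb, −2.20 to 0.37 for Junb, −0.32 to 0.075 for Egr1 and −0.81 to 0.90 for Dusp1.

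Whether mice of the same replicate number were matched was not given, and by the study's methods the AAV-GFP controls were matched by region. Same-numbered mice deviated together with correlations of −0.020 to 0.090, against −0.088 to 0.040 for mice of different numbers. With the number as a replicate block the count of members called stayed 0 in each of the 4 comparisons. The FDR of Btg2 between the subsets was then 0.210. With the block, the share of all entries called rose from 0.555% to 1.48% in mice labelled obese against AAV-GFP. Between the subsets it rose from 0.948% to 2.01%. Depth limits the members, since all but Egr1 have a library with fewer than 30 reads, and the other limit is 3 mice a group.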

Other observations

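Genes of the activity response outside the 10 members were also read by mouse, each singled out after its values were seen. Bdnf, a neurotrophin whose activity-dependent promoters are bound by Npas4, had 60, 70 and 76 reads in AAV-GFP mice, 1, 32 and 0 in mice labelled obese and 68, 8 and 46 in mice labelled nonobese. Its log2 FC in mice labelled obese against AAV-GFP was −2.83 (standard error 0.83, FDR = 0.185 with limma). All mice labelled obese were below all AAV-GFP mice (7.27% of entries lower), as for Npas4. The mouse labelled obese with most reads was replicate 2 for Bdnf and replicate 3 for Npas4. Summed signal of the 3 ventromedial markers was 138.6, 116.8 and 50.1 in AAV-GFP mice. It was 19.3, 139.8 and 19.3 in mice labelled obese and 87.5, 199.8 and 30.1 in mice labelled nonobese. The part of the captured region in the Bdnf values was not tested. Homer1, a postsynaptic scaffold with an activity-induced short form, had a log2 FC of −0.70 in mice labelled obese against AAV-GFP (FDR = 0.500 with limma), with signals of 26.5, 36.1 and 21.8 against 54.1, 56.1 and 30.9.

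Atf3, a stress- and injury-induced factor, was found almost wholly in 2 mice. It had 125 reads in replicate 1 labelled obese and 69 in replicate 3 labelled obese, but 3 in replicate 2 labelled obese, 0 to 3 in AAV-GFP mice and 0 to 7 in mice labelled nonobese. These are the mice with the highest summed microglial and lymphocyte markers. Fosl2, another AP-1 subunit, had 136, 192 and 95 reads in mice labelled obese, 91, 63 and 2 in AAV-GFP mice and 82, 35 and 29 in mice labelled nonobese. Neither passed an FDR of 0.1 with limma (against AAV-GFP, 0.285 for Atf3 and 0.303 for Fosl2 in mice labelled obese).

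Of the 9 neuronal markers 8 ran against the member mean across libraries, given as a description over 9 libraries that share depth and tissue makeup. Of all 9770 candidates 4751 had a positive r, so a negative r is common. Pearson's r with the mean log2(signal + 1) of the members ran from −0.783 for Snap25 to −0.318 for Stmn2, while it was 0.680 for Tubb3. Snap25 had signals of 1032 and 1147 in the 2 libraries with the most entries at 0, where the member mean was lowest, and 590 to 1041 in the others.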
